A study of Rattus norvegicus with 8 samples.

Results

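Cdkn1a and a long non-coding RNA transcribed beside it were examined in the thyroid of irradiated and sham-irradiated rats. The members were taken by name from a table of 30560 gene identifiers. They are the gene Cdkn1a (ENSRNOG00000000521) and the unnamed lncRNA gene ENSRNOG00000070630, which the table also describes as LOC120098812. Each has 2 transcript rows, so that 4 of 54991 rows belong to them. They were chosen by their read counts, which were higher after irradiation in these same libraries, and the irradiation values below are therefore a description with no test. The comparisons between ages did not enter that choice, but they use the same libraries and are not fully independent of it. Genes chosen as higher after irradiation at both ages may tend toward similar responses at the 2 ages.

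All 8 libraries came from male Wistar rats and were made from total RNA of the thyroid. Rats received 4 Gy of X-rays to the neck, or sham irradiation, at the age of 1 week (1w4Gy and 1w0Gy) or of 4 months (4m4Gy and 4m0Gy), and the gland was taken 8 weeks later. Each group held 2 libraries. The ages therefore differ both at exposure and at tissue collection. The 2 libraries of a group came from different rats, which the study picked for the integrity of their RNA. Gene-level totals ran from 14835400 to 18138102 reads per library.

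Cdkn1a encodes p21, an inhibitor of cyclin-dependent kinases that halts the cell cycle and also binds PCNA, the sliding clamp of DNA replication. Its transcription is the best known response of the tumour suppressor p53 to DNA damage, and lasting p21 expression is a common feature of senescent cells. In resting tissue p21 is usually kept low by weak transcription and by rapid decay of its mRNA and protein. A lncRNA is a transcript without a known protein product, and one that starts next to a gene on the opposite strand is called divergent.

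The arrangement of the pair was read from RefSeq on the rat assembly GRCr8. LOC120098812 is the gene listed directly before Cdkn1a. They lie head to head, the lncRNA on the minus strand and Cdkn1a on the plus strand, and 50 bases separate the first lncRNA base from the outermost annotated base of Cdkn1a. RefSeq promoter windows run from 250 bases before to 50 bases after a start, and the windows of both genes share 262 of 300 bases. Of 33465 windows in the table, 10.2% overlap a window of another gene on the other strand. The 2 listed lncRNA starts are 4 bases apart. The stretch upstream of Cdkn1a (chr20:7150682-7150819, plus strand) and the first 50 bases of the lncRNA (chr20:7150720-7150769, minus strand) are shown because the same 20 bases, in capitals, lie in both.
Cdkn1a, upstream: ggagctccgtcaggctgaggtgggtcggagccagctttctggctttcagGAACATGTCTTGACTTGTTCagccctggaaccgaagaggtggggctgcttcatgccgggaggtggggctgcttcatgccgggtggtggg
LOC120098812, first bases: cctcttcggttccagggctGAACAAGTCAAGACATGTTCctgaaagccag
The capitals (chr20:7150731-7150750) resemble the p53 consensus, which consists of a pair of sites of 10 bases each, here called decamer sites. The first decamer site matches it fully and the second differs at position 11 of the 20 bases, counted from the 5′ end on the Cdkn1a strand. The element lies 201 to 182 bases before the Cdkn1a start on which its promoter window is set, which lies further inside the gene than its outermost annotated base. It covers positions 20 to 39 of the lncRNA. Searched on both strands, a pair of adjoining decamer sites with at most 1 mismatch was found in 24 windows (0.0717%), those of both genes included. An exact decamer site alone was found in 7.98% of windows, and an exact adjoining pair in 0 of the 33465 windows. The tolerance of 1 mismatch was added after the exact search had found no pair here. The TATA box (TATAAA), the GC box (GGGCGG) and the CCAAT box, searched on both strands, were absent from both windows and present in 14.2%, 33.1% and 37.5% of all windows. These matches describe letters only, and no binding was measured.

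Cdkn1a was low in both sham groups and higher in every irradiated library, at either age. The longer row (1697 bases) held 280 and 248 reads in 1w0Gy and 749 and 623 reads in 1w4Gy. At 4 months it held 270 and 262 reads in 4m0Gy and 699 and 589 reads in 4m4Gy. In CPM, the reads of a gene scaled by the TMM-adjusted library size, the 4 sham libraries lay between 14.4 and 17.4 and the 4 irradiated libraries between 38.1 and 46.6, without overlap. Every irradiated library lay above every sham library in 0.988% of the 15684 genes tested. Within one age this held for 17.7% of genes at 1 week and 20.9% at 4 months.

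The mean of Cdkn1a was 14.7 ± 0.531 CPM in 1w0Gy and 42.5 ± 5.71 CPM in 1w4Gy (SD, n = 2), a 2.89-fold difference. It was 16.4 ± 1.47 CPM in 4m0Gy and 42.3 ± 5.84 CPM in 4m4Gy (SD, n = 2), a 2.58-fold difference. The fitted log2 differences were 1.53 ± 0.12 at 1 week and 1.36 ± 0.13 at 4 months (SE). Over both ages the log2 difference was 1.45 ± 0.096 (SE), and 10 of 15684 genes had a higher value, the lncRNA among them. In bulk tissue a change in the number of cells that express a gene and a change in the RNA per cell cannot be told apart.

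The shorter Cdkn1a row (1464 bases) showed the same pattern as the longer one. At 1 week it held 110 and 98 reads in 1w0Gy beside 319 and 240 reads in 1w4Gy. At 4 months its reads numbered 100 and 104 in 4m0Gy beside 267 and 246 in 4m4Gy. Its reads were 37.0 to 42.6% of those of the longer row over the 8 libraries, with group means between 38.4% (4m0Gy) and 40.6% (1w4Gy). The balance between the rows thus stayed within a narrow range across the groups, while both rows were higher after irradiation. Over both ages, the log2 difference was 1.44 ± 0.099 for ENSRNOT00000091731 and 1.49 ± 0.12 for ENSRNOT00000101862 (SE), from a fit of all transcript rows. Whether reads common to the rows were assigned to one or to both is not stated in the sources used here.

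The lncRNA was scarce in every group and showed the larger fold difference of the pair. Its longer row (729 bases) held 9 and 7 reads in 1w0Gy and 33 and 52 reads in 1w4Gy. At 4 months it held 9 and 6 reads in 4m0Gy and 56 and 33 reads in 4m4Gy. Sham libraries lay between 0.352 and 0.581 CPM and irradiated libraries between 2.05 and 3.72 CPM, again without overlap. With so few reads the counting error was wide, and an exact 95% Poisson interval ran from 2.81 to 14.4 reads around the 7 reads of 1w0Gy library 2 and from 42.3 to 72.7 reads around the highest count of 56. Such intervals cover counting error only.

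The mean of the lncRNA was 0.445 ± 0.0568 CPM in 1w0Gy and 2.63 ± 0.821 CPM in 1w4Gy (SD, n = 2). It was 0.467 ± 0.162 CPM in 4m0Gy and 2.93 ± 1.12 CPM in 4m4Gy (SD, n = 2). The irradiated mean was 5.91-fold the sham mean at 1 week and 6.27-fold at 4 months. The fitted log2 differences were 2.54 ± 0.41 at 1 week and 2.64 ± 0.47 at 4 months (SE). Over both ages the value was 2.59 ± 0.30 (SE), and 0 of 15684 genes had a higher one. The lncRNA passed the filter on low counts only through its irradiated libraries, so a gene of its level had to differ to be tested at all.

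**Figure D1:**
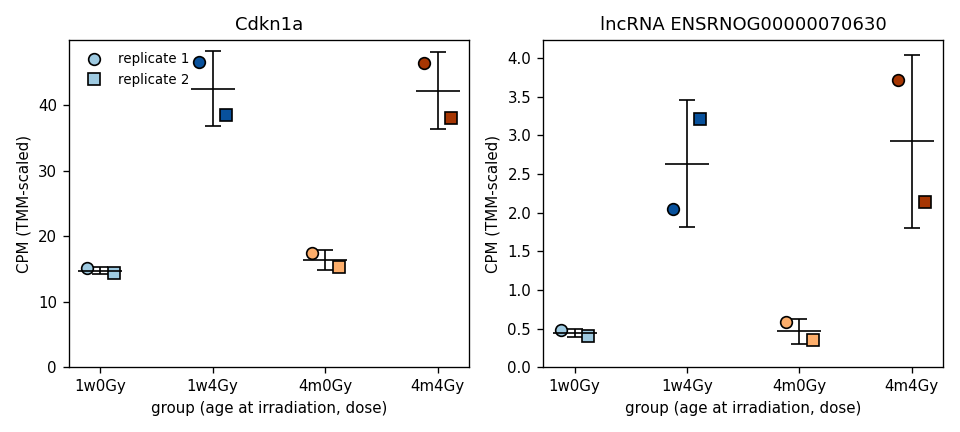
CPM after TMM scaling of Cdkn1a (left) and of the lncRNA ENSRNOG00000070630 (right) in each library, by group. Circles are replicate 1, squares replicate 2, and bars the mean ± SD of 2 libraries. Sham libraries lie between 14.4 and 17.4 CPM for Cdkn1a and between 0.352 and 0.581 CPM for the lncRNA, below every irradiated library in both panels.

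The shorter lncRNA row (556 bases) carried most of the reads of the longer one. At 1 week it held 9 and 5 reads in 1w0Gy beside 31 and 49 reads in 1w4Gy. At 4 months its reads numbered 8 and 4 in 4m0Gy beside 52 and 33 in 4m4Gy. Its count was 66.7 to 100% of the longer row's, and the shares below 90% were all in sham libraries. Those shares rest on counts of at most 9 reads, and another sham library, 1w0Gy library 1, stood at 100%. No difference between the groups is read from them. Over both ages, the log2 difference was 2.58 ± 0.31 for ENSRNOT00000111825 and 2.75 ± 0.33 for ENSRNOT00000110122 (SE). Library preparation was directional, but the strand setting of the counting is not stated in the sources used here. If strand was not used, reads of any overlapping antisense transcript cannot be told apart from those of the lncRNA.

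Per length, Cdkn1a was far more abundant than the lncRNA. The deposited TPM of Cdkn1a averaged 8.07 for 1w0Gy, 23.5 for 1w4Gy, 9.09 for 4m0Gy and 22.5 for 4m4Gy. The lncRNA averaged 0.568, 3.40, 0.601 and 3.63 TPM in the same order. The lncRNA level was thus 5.33 to 19.4% of the Cdkn1a level over the 8 libraries.

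For every 100 reads of Cdkn1a there were 3.21 and 2.82 lncRNA reads in 1w0Gy beside 4.41 and 8.35 in 1w4Gy. The 4-month ratio was 3.33 and 2.29 in 4m0Gy beside 8.01 and 5.60 in 4m4Gy. The 4 irradiated libraries were thus all above the 4 sham libraries in this ratio, though many single intervals overlapped. Both genes had been chosen as higher in these irradiated libraries, and the sham ratios rest on few lncRNA reads. No share of such separations among other gene pairs was computed, so the ratio is a description. The exact 95% interval of 1w4Gy library 1, the lowest irradiated value, ran from 3.01 to 6.24 reads and so held the sham values of 3.21 and 3.33. Within 1w4Gy the libraries ranked in opposite order for Cdkn1a and for the lncRNA. Library 1 exceeded library 2 by 0.27 on the log2 CPM scale for Cdkn1a and was lower by a log2 CPM difference of -0.62 for the lncRNA. In the other groups library 1 was the higher one for both genes.

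**Figure D2:**
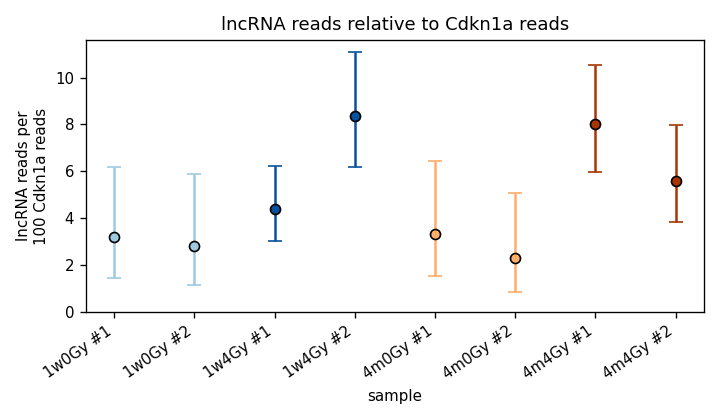
lncRNA reads per 100 Cdkn1a reads (y axis, longer row of each gene) in each of the 8 libraries, with exact 95% counting intervals. Sham values lie between 2.29 and 3.33 and irradiated values between 4.41 and 8.35, and the intervals of sham and irradiated libraries overlap in part.

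The response to irradiation was next compared between the ages, the one question on irradiation that the choice of members had not used. The response of Cdkn1a at 1 week exceeded that at 4 months by 0.16 ± 0.19 on the log2 scale (SE, 95% interval -0.27 to 0.59, adjusted p = 0.840, edgeR quasi-likelihood test). For the lncRNA the same difference was -0.10 ± 0.69 (SE, 95% interval -1.66 to 1.45, adjusted p = 0.979, same edgeR test). Both differences were smaller than their SE, and neither member was called, against 0% of the 15684 genes. At an unadjusted p under 0.05, 1430 genes (9.12%) passed, and DESeq2 called 21. Differences within these intervals were not detectable with 2 libraries a group.

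The sham groups were compared to see whether age alone moved the basal levels. Cdkn1a lay between 14.4 and 15.1 CPM in 1w0Gy and between 15.4 and 17.4 CPM in 4m0Gy. The groups thus did not overlap, as was the case in 25.4% of the 15364 genes tested when both 4m0Gy libraries are required to be the higher. The log2 difference of 0.15 ± 0.13 (SE, 95% interval -0.15 to 0.45, adjusted p = 0.575, edgeR quasi-likelihood test) was of the size of its SE and did not pass. In this comparison 0.722% of genes were called. The lncRNA, with 6 to 9 reads, did not pass the filter on low counts there. In a fit of all 8 libraries its log2 difference was 0.05 ± 0.57 (SE, 95% interval -1.24 to 1.34, adjusted p = 0.977, edgeR). From low to high, the group means of Cdkn1a ran 1w0Gy, 4m0Gy, 4m4Gy, 1w4Gy. Between the sham groups the difference did not pass, and the irradiated groups overlapped, with a ratio of means of 0.994.

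The genes around the pair were read to see how far along the chromosome such differences extended. The 5 nearest measured genes on each side were Srsf3, Stk38, Kctd20, Pxt1 and Bnip5 before, and Rab44, Cpne5, Ppil1, C20h6orf89 and Pi16 after. Of these 10, 7 were tested, and 0 were called in any of the 5 comparisons. Pxt1, Bnip5 and Rab44 did not pass the filter on low counts. DESeq2 called 0 of the 10 as well, though at 4 months it gave an adjusted p to only 5171 genes. Genes without one could not be called. At an unadjusted p under 0.05 with edgeR, 1 neighbour passed at 1 week, 1 for the difference between ages and 1 for sham age. Over both ages the log2 differences of the 7 lay between -0.33 and 0.033, beside 1.45 for Cdkn1a and 2.59 for the lncRNA. Srsf3, the splicing factor gene nearest to the lncRNA among those measured, had 152 to 179 CPM over the 8 libraries and a log2 difference of 0.03 ± 0.063 (SE). Stk38, a protein kinase gene, had -0.02 ± 0.051 (SE). Cpne5, a copine gene and the nearest tested gene after Cdkn1a, had -0.53 ± 0.21 at 1 week and 0.48 ± 0.23 at 4 months (log2, SE), so that its mean over both ages was near 0. The difference between these responses was -1.01 ± 0.33 (SE, adjusted p = 0.461, edgeR). At 1 week Pi16 had the widest neighbour value, -0.75 ± 0.32 (SE), in a group where its sham libraries held 82.3 and 37.6 CPM. Its adjusted p was 0.864 (edgeR).

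**Figure D3:**
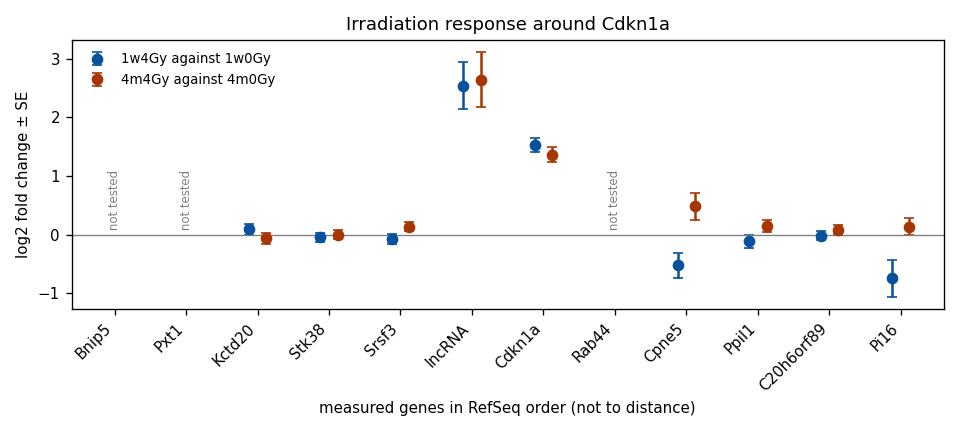
Log2 fold change ± SE of irradiated against sham thyroid at 1 week (blue) and at 4 months (brown) for Cdkn1a, the lncRNA and the 10 nearest measured genes, in RefSeq order and not to distance. The pair stands at 1.36 or above, the 7 tested neighbours lie between -0.75 and 0.48, and 3 neighbours did not pass the filter on low counts.

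Of the 15683 other genes tested over the 8 libraries, the one whose log2 CPM was most like that of Cdkn1a was the lncRNA, and the converse held too (Pearson r = 0.968 over 8 libraries). The libraries share the irradiation contrast that chose both members, so the likeness is a description. Next to Cdkn1a came Prr15l (0.966), Bcdin3d (0.954), Actn4 (0.944) and Serpinf2 (0.939). Next to the lncRNA came Oser1 (0.950), Bcdin3d (0.937), the unnamed gene ENSRNOG00000064063 (0.934) and Aen (0.922), the last being a p53-induced nuclease gene. Their irradiation differences were much smaller than those of the pair. Prr15l had 75.5 to 78.8 CPM in 1w0Gy and 101 to 109 CPM in 1w4Gy, and a log2 difference of 0.35 ± 0.065 over both ages (SE, adjusted p = 0.806, edgeR). Bcdin3d, an RNA methyltransferase gene, had 0.37 ± 0.11 (SE). Actn4, an actin crosslinker gene, had 0.09 ± 0.050 (SE).

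Genes that act with p21 were then listed by role, with lists drawn up when results of these data were already known. With edgeR none of the 7 lists had a gene called in any of the 5 comparisons. DESeq2 called 1 list gene in each of 4 of them, namely Ephx1 at 4 months, Ccng1 over both ages, Foxo3 for the difference between ages and Ccnd2 for age in sham rats. At 4 months DESeq2 gave an adjusted p to only 5171 genes, and list genes without one could not be called there. Genes called by edgeR made up 0% of those tested at 1 week, 0% at 4 months and 0.00638% over both ages. The 1 gene called over both ages was Cdkn1a itself, which had been chosen by that contrast and was not tested by it. DESeq2 called 21 genes at 1 week, 9 at 4 months and 12 over both ages. At an unadjusted p under 0.05, 5.74% of genes passed at 1 week, 8.04% at 4 months and 4.04% over both ages, of which 2.56% of all genes were higher. The median log2 difference of all genes over both ages was 0.0012.

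Among the other CDK inhibitors, 5 of 6 were tested and 1 passed at an unadjusted p under 0.05 over both ages. Cdkn1b, which encodes p27, was the most abundant of the family with a mean of 44.2 TPM in 1w0Gy and 43.2 TPM in 1w4Gy. It averaged 45.3 TPM in 4m0Gy and 43.4 TPM in 4m4Gy, a log2 difference of -0.02 ± 0.066 over both ages (SE, 95% interval -0.17 to 0.12, adjusted p = 0.999, edgeR). Cdkn1a was the next most abundant in each group, above Cdkn2c (5.51 to 6.72 TPM as group means) and Cdkn2d (5.13 to 6.01 TPM). After irradiation the p21 transcript was thus nearer to the p27 transcript per length than in sham rats. Cdkn1c, which encodes p57, had a log2 difference of 0.18 ± 0.18 (SE). Cdkn2b, which encodes p15, held 0.452 to 1.29 CPM over the libraries and had the smallest unadjusted p of the list, with a log2 difference of 0.65 ± 0.29 (SE, adjusted p = 0.999, edgeR). Cdkn2a, which encodes p16 and ARF, was near 0, with group means between 0.0578 and 0.228 TPM.

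The partners that p21 binds did not pass the test in either direction. Of 12 cyclins, CDKs and PCNA, all tested over both ages, 8 had higher and the others lower values, with a median log2 difference of 0.048. Cdk2, the kinase that p21 inhibits best, had -0.0017 ± 0.081 (SE). Ccnd1, cyclin D1, had 0.18 ± 0.095 (SE). Pcna had 0.14 ± 0.070 (SE, adjusted p = 0.999, edgeR).

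Proliferation genes that Rb and the DREAM complex repress when p21 is active were listed because they read out the arrest. Of 26, 25 were found by symbol and tested, and 23 had higher and the others lower values over both ages. The median log2 difference was 0.16, beside 0.0012 for all genes. Because these genes share control, they are not independent observations, and arrest itself was not tested. At an unadjusted p under 0.05, 1 of them passed, in the upward direction, and 0 in the downward one. Mki67, the Ki-67 proliferation marker, had 5.77 and 5.85 CPM in 1w0Gy and 8.77 and 7.60 CPM in 1w4Gy. It had 3.62 and 3.64 CPM in 4m0Gy and 3.78 and 5.57 CPM in 4m4Gy, so that the irradiated libraries were the higher at each age. Its log2 difference over both ages was 0.44 ± 0.15 (SE, adjusted p = 0.999, edgeR).

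Upstream of Cdkn1a, transcripts of damage-signalling regulators gave a median log2 difference of -0.016 over both ages for 12 tested of 14, 0 of which passed at an unadjusted p under 0.05. By age, 1 of them was higher at 1 week and 3 were lower at 4 months at that threshold. For the difference between the responses at the 2 ages 4 passed, beside 9.12% of all genes. Mdm4, an inhibitor of the same pathway as Mdm2 and named after its values were seen, had 0.46 ± 0.19 at 1 week and -0.63 ± 0.18 at 4 months (log2, SE). The difference between these responses was 1.08 ± 0.28 (SE, adjusted p = 0.440, edgeR). Mdm2, a ubiquitin ligase gene of the damage response, had a log2 difference of 0.03 ± 0.070 (SE). Tp53bp1, a double-strand break sensor gene, had the smallest unadjusted p of this list with a log2 difference of -0.16 ± 0.082 (SE, adjusted p = 0.999, edgeR).

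Of 22 other transcriptional regulators of Cdkn1a, 19 were found and tested, with a median log2 difference of 0.012 over both ages. At an unadjusted p under 0.05, 2 were higher and 1 lower over both ages, 4 higher and 1 lower at 1 week, and 1 higher and 3 lower at 4 months. Foxo3, a forkhead factor named after its values were seen, had 34.9 and 37.2 CPM in 1w0Gy, and 56.5 and 48.1 CPM in 1w4Gy. At 4 months it had 48.3 and 46.3 CPM in 4m0Gy, and 29.8 and 36.3 CPM in 4m4Gy. Its libraries thus separated in opposite directions at the 2 ages, unlike those of Cdkn1a. The difference between its responses was 1.05 ± 0.16 on the log2 scale (SE, adjusted p = 0.337, edgeR, and 0.00184, DESeq2), so the call rests on the tool. Cebpd, a stress-induced C/EBP factor, had 7.12 and 11.1 CPM in 1w0Gy, and 16.5 and 16.1 CPM in 1w4Gy. At 4 months it had 14.9 and 14.4 CPM in 4m0Gy, and 22.4 and 16.1 CPM in 4m4Gy. Its log2 difference was 0.61 ± 0.16 (SE, adjusted p = 0.999, edgeR). The 15 genes for turnover of p21 mRNA and protein had a median of -0.037, and 1 of them passed at an unadjusted p under 0.05. That gene was Zfp36, an mRNA decay factor, with 0.19 ± 0.083 (SE). Skp2, part of the ubiquitin ligase that degrades p21, had -0.05 ± 0.15 (SE). Rbm38, an RNA-binding protein gene that acts on p21 mRNA, had -0.16 ± 0.17 (SE).

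The other canonical p53 targets tested had smaller differences than Cdkn1a at both ages. Of 25, 24 were tested, 18 had higher values over both ages, and the median log2 difference was 0.072. At an unadjusted p under 0.05, 5 were higher and 0 lower. Ccng1, cyclin G1, had 147 and 154 CPM in 1w0Gy and 206 and 169 CPM in 1w4Gy, and 147 and 127 CPM in 4m0Gy and 191 and 171 CPM in 4m4Gy. Every irradiated library thus lay above every sham library for Ccng1 too, with a log2 difference of 0.36 ± 0.079 (SE, adjusted p = 0.932, edgeR, and 0.0468, DESeq2). Ephx1, an epoxide hydrolase gene, was among the 5 higher ones and was named after its values were seen. The study had itself reported it as higher after irradiation at 4 months, so its place in the list is no test. It had 67.7 and 69.2 CPM in 4m0Gy and 112 and 112 CPM in 4m4Gy. Its log2 difference at 4 months was 0.71 ± 0.070 (SE, adjusted p = 0.104, edgeR, and 1.40e-05, DESeq2). At 1 week, where its libraries overlapped, it was 0.31 ± 0.21 (SE). Tp53inp1, a stress-response gene also named after its values were seen, had 0.46 ± 0.17 at 1 week and -0.42 ± 0.16 at 4 months (log2, SE). The difference between its responses was 0.88 ± 0.21 (SE, adjusted p = 0.440, edgeR). E2f1, Foxo4, Cebpa and Eda2r were not analysed here.

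**Figure D4:**
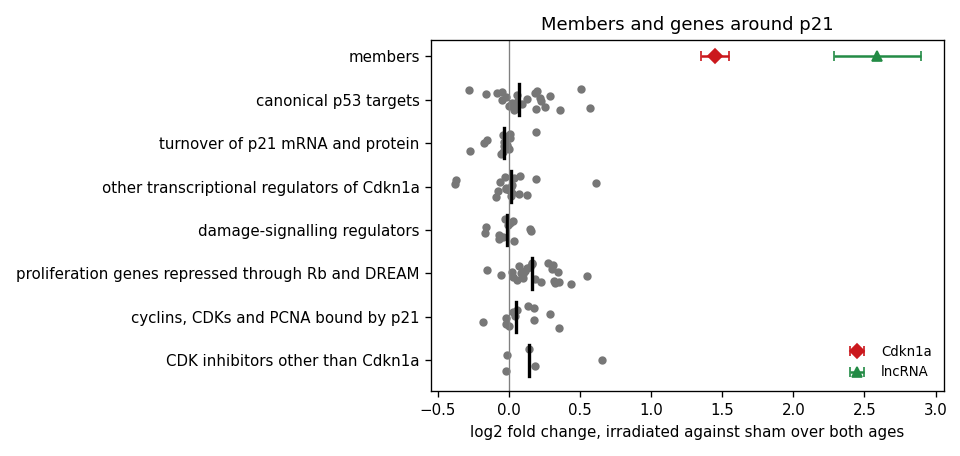
Log2 fold change of irradiated against sham thyroid over both ages (x axis) for the genes of the 7 lists (grey points, black bar at the list's median) and for Cdkn1a (red diamond) and the lncRNA (green triangle) with SE. Listed genes lie between -0.38 and 0.65, the lncRNA stands at 2.59 and Cdkn1a at 1.45.

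Markers of neighbouring tissues varied among the libraries. Thyroid markers were high throughout, Tg taking 18.5 to 21.3% of the counts, while Slc26a4, which encodes pendrin, held 0 to 0.388 CPM. The summed level of 4 parathyroid markers ranged from 642 to 7720 CPM, that of 5 C cell markers from 3372 to 8435 CPM and that of 6 adipocyte markers from 74.8 to 307 CPM. The parathyroid and C cell lists share Chga, so their sums are not separate. The value of 642 CPM was that of 4m4Gy library 2 alone, and the next lowest library held 3053 CPM. Muscle markers (6.74 to 92.2 CPM), lymphocyte markers (0.775 to 2.84 CPM), macrophage markers (39.7 to 87.4 CPM), endothelial markers (457 to 631 CPM) and fibroblast markers (604 to 1907 CPM) were also present. Over all 8 libraries the sham and irradiated ranges of each list overlapped. Such an overlap says little where a list differed by age. Fibroblast markers, for example, had 1591 to 1907 CPM in 1w0Gy and 604 to 793 CPM in 4m0Gy. Within an age some lists did separate. Of all genes tested, 17.7% at 1 week and 20.9% at 4 months had both irradiated libraries above both sham libraries. Such a separation was thus common with 2 libraries a group. The share with both irradiated libraries below both sham libraries was not computed, so the lists that were lower have no background beside them. Lymphocyte markers, at a low summed level, were higher in irradiated libraries at 1 week (2.05 and 2.84 CPM beside 1.67 and 1.56 CPM). They were also higher at 4 months (1.66 and 1.49 CPM beside 0.775 and 1.29 CPM). At 1 week endothelial markers were also higher (619 and 631 CPM beside 528 and 514 CPM), and adipocyte (158 and 147 CPM beside 307 and 220 CPM) and parathyroid markers (3053 to 4353 CPM beside 4770 to 7273 CPM) lower. At 4 months C cell markers (7282 to 8435 CPM beside 6291 to 7098 CPM) and the 1 red cell marker found (370 to 387 CPM beside 291 to 354 CPM) were higher. The part of other cell types in the level of the pair was not tested.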

How the data were processed

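Thyroid RNA was sequenced in 8 samples, in 4 groups of 2. The authors aligned reads with HISAT2 2.2.1 and counted them with featureCounts 2.0.0, per the labels. The genome build, annotation and strand setting were not given in the sources used here. They deposited read counts, RPKM and TPM for each of 54991 transcript rows. Here the deposited counts of the row with the highest total represented each gene, and deposited TPM was used for levels between genes, deposited RPKM only as another scale. The authors' values were otherwise left as deposited.

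Counts were tested with edgeR 4.0.16 (TMM, filterByExpr, quasi-likelihood test, default moderation) in R 4.3.3, with Benjamini-Hochberg adjustment over all genes tested and calls at an adjusted p of 0.05. DESeq2 1.42.0 was an alternative. The fits were tested on simulated data. Likeness used log2 CPM with a prior count of 2.

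The members and the gene lists were chosen with earlier results of these data known. Genes named in the text are those called, the one of smallest unadjusted p in each list, genes chosen by role, the 5 nearest measured genes on each side and the 5 of highest likeness. Outside this rule, Mdm4 and Tp53inp1 were named after their values were seen. Foxo3 and Ephx1, called by DESeq2, were also named after their values were seen. Replicate libraries of a group differed by more than sampling noise (chi-square 7.97 to 16.2 times its degrees of freedom). Some listed genes are not reported here.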

Additional observations from a re-analysis of the deposited data

How the results depend on the processing

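Both members stayed higher in irradiated rats under every alternative run that fitted them. They had been chosen as higher in these same libraries, so this direction was given in advance and is no test. The ranges below describe only how far the size of the difference depended on the processing. The lncRNA, with its low sham counts, did not enter the run that required at least 10 counts in every sample. With 1 library left out in turn, the log2 difference ranged from 1.39 to 1.66 for Cdkn1a and from 2.18 to 2.83 for the lncRNA at 1 week, from 1.21 to 1.49 and from 2.19 to 3.02 at 4 months, and from 1.37 to 1.51 and from 2.40 to 2.74 over both ages. For the difference between ages in the response, the range was 0.018 to 0.31 for Cdkn1a and -0.49 to 0.35 for the lncRNA. The lncRNA value turned positive without 1w0Gy replicate 1 (0.035), 1w4Gy replicate 1 (0.19), 4m0Gy replicate 2 (0.23) or 4m4Gy replicate 1 (0.35), so it has no stable direction. The sham age difference ranged from 0.060 to 0.24 for Cdkn1a, and for the lncRNA was 0.37 in the 1 fit it entered and -0.0032 with transcript rows summed. No alternative run called either member for the difference between ages or for sham age.

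Counts of called genes depended more on the fit, and the cause was not tested. DESeq2 called 21 genes at 1 week, 9 at 4 months, 12 over both ages, 21 for the difference between ages and 344 for age in sham rats. It gave no adjusted p for the lncRNA in the 3 irradiation comparisons, nor for Cdkn1a at 4 months. With robust moderation, added after seeing the data, edgeR called 1 at 1 week, 3 at 4 months and 2 over both ages. These included Cdkn1a in each, Ephx1 at 4 months and the lncRNA over both ages. A fit of all 8 libraries called 1 at 1 week. The members had been chosen by these same irradiation contrasts, so calls of them are no test. Without a filter on low counts edgeR called 2 at 4 months, 3 over both ages, 2 for the difference between ages and 436 for sham age. Same-numbered libraries of different groups did not deviate together in every pair of groups (r of their deviations between -0.23 and 0.15), so the numbers were not taken to pair the samples. A replicate block gave 14 at 1 week, 2 at 4 months and 20 for sham age, whereas numbers crossed in one group, also added later, gave 346. Summed rows gave 17 for sham age. Leaving out 1 library gave 0 to 80 genes at 1 week (80 without 1w4Gy replicate 2), 1 to 38 at 4 months (38 without 4m0Gy replicate 1), 1 to 3 over both ages (3 without 4m0Gy replicate 1) and 0 to 646 for sham age (0 without 1w0Gy replicate 1, 7 without 1w0Gy replicate 2, 363 without 4m0Gy replicate 1, 646 without 4m0Gy replicate 2). The lone library of a group is then assumed to vary like the others. At 6 to 9 reads per sham library, changes in the basal lncRNA level were not resolved.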
